A study of Arabidopsis thaliana with 6 samples.

Results

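Mitochondrion-encoded genes of Arabidopsis thaliana were followed in seedlings that had been moved from darkness to light. The members were taken from the deposited table as the rows whose identifier begins with ATMG, the prefix for genes of the mitochondrial genome, and whose average over the 6 libraries was at least 10 normalized counts. This left 71 members among 152 mitochondrial rows and 36917 genes in all. Of the other mitochondrial rows, 35 were at 0 in all 6 libraries and 46 had a mean above 0 but under 10. The members held 99.89% of the reads on mitochondrial rows.

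The plant mitochondrial genome encodes a small part of the respiratory chain, of ATP synthase, of the machinery that attaches heme to c-type cytochromes, and of the mitochondrial ribosome. All other mitochondrial proteins are made from nuclear genes and imported. Mitochondrial transcripts are processed by trans-splicing, intron removal and C-to-U editing, and most carry no stable poly(A) tail, so they are read well only in libraries that do not select for one. In Arabidopsis, a long stretch of mitochondrial DNA also sits in the nuclear genome near the centromere of chromosome 2.

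Wild-type seedlings (Col-0) were compared with seedlings labelled bbx14-1, with 3 libraries each; bbx14-1 is an allele, in the same background, of BBX14, which encodes a transcription factor of the B-box family. Seeds of both groups were stratified for 3 days at 4 °C, given 2 h of white light at 100 µmol photons per square metre and second, grown for 3 days in darkness and moved to light for 1 day, so that RNA was taken on day 4. Total RNA was depleted of ribosomal RNA, and random-primed, strand-specific libraries were made from it. The labels do not say whether the samples of a group were grown separately, so the spread behind each p-value may be technical in part. The labels give whole seedlings without a tissue, and fewer mitochondria and less RNA per mitochondrion cannot be told apart in such material.

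Libraries held 20939505 to 32621183 reads, of which plastid genes took 49.61% to 56.67% and the mitochondrial members 100224 to 147414 reads. A floor of 3 reads corresponded to 2.40 to 3.77 normalized counts, which covers counting error only. BBX14 (AT1G68520) was not lower in the bbx14-1-labelled libraries, with 580 ± 89.99 normalized counts in the wild-type group and 767 ± 122 in the other (SD, n = 3 each). Its log2 fold change was 0.40 with an adjusted p of 0.0726 by limma, so every direction below refers to the label of a library and not to a measured loss of BBX14 mRNA.

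Much of the mitochondrial genome can be read from a second place. In the TAIR10.1 reference, 70.56% of the 50-base windows of the 367808-base mitochondrial genome also occurred in the nuclear chromosomes, on either strand and without mismatch, and 70.36% occurred on chromosome 2. The stretch of chromosome 2 that holds them spans chr2:3239038-3509765, or 270728 bases, and carries 185 annotated genes. The mitochondrial genome has 33 annotated protein-coding genes, counting each of the atp6 copies, and 16 of them had every coding window in the nucleus. At the other end, 5 had no coding window there, namely ccmB, nad9, cox1, nad4L and atp4. The submitters name TAIR10, whose mitochondrial sequence may differ from the one used here.

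The sequences behind 3 of the rows described below show how close the copies are. The first set is the start of nad1, which encodes a core membrane subunit of respiratory complex I, at mitochondrial positions 83142 to 83321 on the minus strand and at chr2:3348024-3348203 on the plus strand. Capitals mark the first codon, which is ACG in the DNA and is made into a start codon by C-to-U editing of the RNA.
nad1, mitochondrial genome: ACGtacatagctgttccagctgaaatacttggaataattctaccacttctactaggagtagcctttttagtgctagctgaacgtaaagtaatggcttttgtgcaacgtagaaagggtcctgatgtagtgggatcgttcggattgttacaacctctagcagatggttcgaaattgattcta
AT2G07785, chromosome 2: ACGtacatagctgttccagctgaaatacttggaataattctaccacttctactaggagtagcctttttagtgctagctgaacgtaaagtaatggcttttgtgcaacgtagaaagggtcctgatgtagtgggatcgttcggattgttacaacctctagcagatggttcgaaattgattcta
These 180 bases are identical, as is the whole first piece of nad1 of 385 bases. Over the 902 bases of the nuclear gene AT2G07785, 1 base differs from the mitochondrial genome.

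The second set is the start of cob, which encodes apocytochrome b of respiratory complex III, at mitochondrial positions 182739 to 182858 on the minus strand and at chr2:3450863-3450982 on the plus strand. It is shown because the cob row fell below the threshold while its nuclear copy was among the most read genes of the insertion.
cob, mitochondrial genome: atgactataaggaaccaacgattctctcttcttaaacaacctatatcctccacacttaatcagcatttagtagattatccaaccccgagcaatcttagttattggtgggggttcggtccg
AT2G07727, chromosome 2: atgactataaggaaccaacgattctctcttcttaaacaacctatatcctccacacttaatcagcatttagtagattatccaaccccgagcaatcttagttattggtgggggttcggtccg
All 1182 coding bases of cob are identical in the nuclear copy, so a read inside them carries nothing that tells the genomes apart other than RNA editing.

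The third set comes from a stretch of the mitochondrial genome that resembles the plastid gene rbcL, which encodes the large subunit of the carbon-fixing enzyme Rubisco. It is shown because the member described by this match is 1 of the 2 called below, and because plastid transcripts were far more abundant than mitochondrial ones. The 200 bases lie at mitochondrial positions 165083 to 165282 on the plus strand, at chr2:3468439-3468638 on the minus strand in AT2G07732, and at plastid positions 55598 to 55797 on the plus strand. Capitals mark bases that differ from the plastid gene.
rbcL-like, mitochondrial genome: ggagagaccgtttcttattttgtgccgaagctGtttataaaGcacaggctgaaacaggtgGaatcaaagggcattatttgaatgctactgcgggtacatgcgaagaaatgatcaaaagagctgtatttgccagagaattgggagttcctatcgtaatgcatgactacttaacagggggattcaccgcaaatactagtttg
AT2G07732, chromosome 2: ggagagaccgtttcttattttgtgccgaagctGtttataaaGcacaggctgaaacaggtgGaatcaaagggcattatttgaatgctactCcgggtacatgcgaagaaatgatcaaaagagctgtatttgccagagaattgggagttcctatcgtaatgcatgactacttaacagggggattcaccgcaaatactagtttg
rbcL, plastid genome: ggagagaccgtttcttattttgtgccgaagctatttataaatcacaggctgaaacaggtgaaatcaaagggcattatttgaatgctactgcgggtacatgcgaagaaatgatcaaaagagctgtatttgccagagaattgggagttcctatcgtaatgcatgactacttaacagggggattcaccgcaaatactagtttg
The mitochondrial stretch differs from plastid rbcL at 3 of 200 bases and the nuclear one at 4. Of the 691 windows of AT2G07732, 139 (20.1%) occur without mismatch in the plastid genome and 591 (85.5%) in the mitochondrial genome.

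The annotation notes of these nuclear copies were also the route by which mitochondrial rows could be given a description, since the table holds only identifiers. Notes of 55 nuclear genes name 53 mitochondrial rows as their best protein match or as the gene they are a pseudogene of, and 54 of the 55 lie in the insertion. Of the 71 members, 24 are named in this way and 47 are not, and the latter are given as identifiers. Among the 20 members that averaged at least 1000 normalized counts, 2 are named in a note.

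Reads of the genes that occur in both places were divided very unequally between the rows. Over 33 mitochondrial rows for which the row or its copies reached a mean of 10 normalized counts, the nuclear copies held more reads in 19. ATMG01190, described as subunit 1 of ATP synthase, had a mean of 242 normalized counts, and its nuclear copy AT2G07698 had 9446, which is 97.5% of their sum. ATMG00730, described as subunit 3 of cytochrome c oxidase, had 345 against 3340 for AT2G07687, or 90.7% of the sum on the copy. The cob row ATMG00220 had 9.58 against 6023 for AT2G07727, or 99.8%, and lay just below the threshold for members. AT2G07698, AT2G07727 and AT2G07687 were the 3 genes of the insertion with the most reads.

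The opposite division occurred as well. ATMG01320, described as NADH dehydrogenase 2B, had 3124 normalized counts and its copy AT2G07689 had 31.4, or 0.994% of the sum. For ATMG01275, described as NADH dehydrogenase 1A, the copy AT2G07785 held 0.421% of the sum, and for ATMG00180, which matches ccmFC, a factor of heme attachment to cytochrome c, the copy held 0.106%. Near-equal division was found for ATMG00990, described as NADH dehydrogenase 3, with 68.7 against 66.5 normalized counts. It was also found for ATMG00980, a ribosomal protein S12 match, with 80.2 against 72.0. A copy and its row need not cover the same stretch, and the shares were not corrected for length. AT2G07689 spans 645 bases, beside 1467 coding bases of nad2 in 5 pieces. AT2G07815 matches mitochondrial positions 187538 to 190033, while ccmFC lies at 189483 to 191770. AT2G07727 spans 3243 bases, beside 1182 for the coding sequence of cob. AT2G07751 and AT2G07675 have the lengths of nad3 and rps12, 357 and 378 bases. The part of length in these divisions was not tested. How the authors' counting treated reads with several matches is not given in the sources used here, and its part in these divisions was not tested. The level of a member that has such a copy is therefore uncertain, and sums of row and copy are given below for the pairs with a large part of their reads on the copy.

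**Figure D1:**
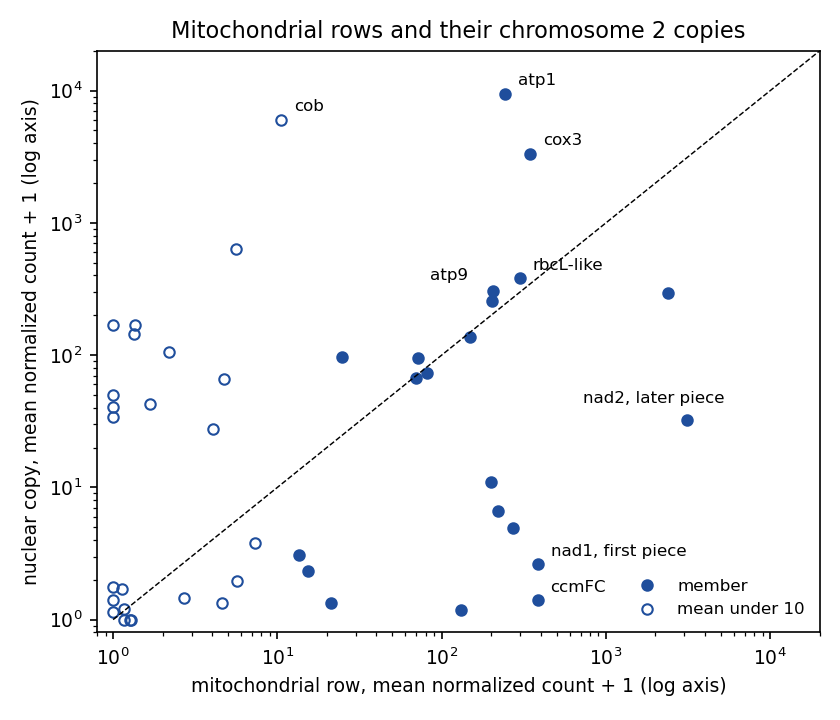
Each point is a mitochondrial row that annotation notes of nuclear genes name, with its mean normalized count + 1 over 6 libraries on the horizontal log axis and the summed mean of its nuclear copies + 1 on the vertical log axis; filled points are members, open points have a mean under 10, and the dashed line marks equal counts. The atp1, cox3 and cob pairs lie far above the line, with 9446, 3340 and 6023 normalized counts on the copy, and the nad1 and nad2 pieces lie far below it.

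The summed share of the members was about the same size in both groups. It was 0.456%, 0.479% and 0.415% of all reads in wild-type replicates 1 to 3, and 0.452%, 0.499% and 0.458% in the corresponding libraries labelled bbx14-1. The highest value came from bbx14-1 replicate 2 and the lowest from wild-type replicate 3, and the groups overlapped. The mean was 0.450% ± 0.0326 in wild type and 0.470% ± 0.0258 in the bbx14-1-labelled libraries (SD, n = 3 each), a difference of 0.0200 percentage points that is smaller than either SD.

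Against the reads outside plastid genes, the members took 1.034%, 1.011% and 0.927% in wild type and 0.994%, 1.152% and 0.909% in the bbx14-1-labelled libraries. On this total too the groups overlapped, and bbx14-1 replicate 2 was again the highest. With the reads of the named nuclear copies added, the members' share of all reads was 0.532% ± 0.0351 in wild type and 0.553% ± 0.0241 in the bbx14-1-labelled libraries (SD, n = 3 each).

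**Figure D2:**
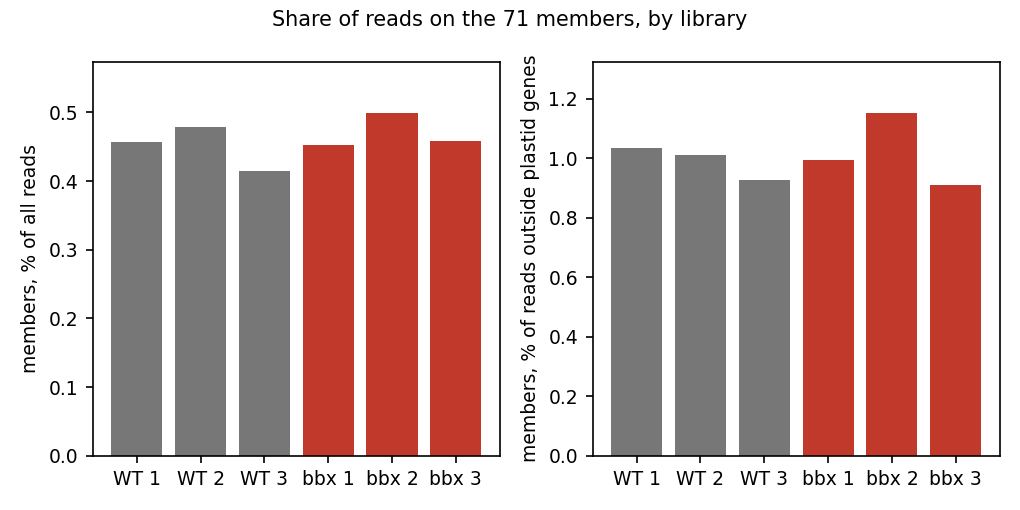
Bars give the share of reads on the 71 members in each library, as a percentage of all reads (left) and of reads outside plastid genes (right); grey bars are wild-type (WT) replicates and red bars are libraries labelled bbx14-1 (bbx). Replicate 2 of bbx14-1 is the highest in both panels, at 0.499% and 1.152%, and the groups overlap in both.

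A few rows carried most of the mitochondrial reads. The 8 most-read members held 70.51% of the reads on mitochondrial rows, and ATMG01360 alone held 20.88%. These are counts of reads, not levels per length, so they give no order of expression between genes. ATMG01360 had 26241, 24819 and 24670 normalized counts in wild-type seedlings and 25848, 26967 and 23903 in the bbx14-1-labelled libraries. Its groups overlapped, with a log2 fold change of 0.02 (95% interval -0.18 to 0.22).

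ATMG00160 had 13790, 14824 and 13370 normalized counts in wild-type seedlings and 14797, 17118 and 14578 in the bbx14-1-labelled libraries, with a log2 fold change of 0.14 (95% interval -0.05 to 0.34). The groups overlapped, and bbx14-1 replicate 2 was the highest library. ATMG00060 had 13523 ± 920 normalized counts in wild-type seedlings and 12890 ± 1441 in the bbx14-1-labelled libraries (SD, n = 3 each). For ATMG00070 the means were 10320 ± 228 and 10206 ± 1164 (SD, n = 3 each). ATMG00510, ATMG00513, ATMG01170 and ATMG00090 had means of 6849, 6456, 4796 and 4390 normalized counts over the 6 libraries, and log2 fold changes of 0.13, 0.01, 0.02 and 0.05. None of these 8 was called, the groups of each overlapped, and all 8 changes lay between -0.07 and 0.14 on the log2 scale.

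The members were then compared one by one between the genotypes, with limma on log2(normalized count + 1) over all 19003 genes that averaged at least 10 and Benjamini-Hochberg adjustment over all of them. At an adjusted p under 0.05, 2 of 71 members (2.82%) were called, beside 4.65% of all genes tested. ATMG01275 was higher and ATMG00280 was lower in the bbx14-1-labelled libraries. The background in each direction was 2.51% of all genes called higher and 2.14% called lower. For plastid rows, 16 of 118 were called higher and 0 lower.

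Other counts were set beside the background in the same way. An unadjusted p under 0.05 was found for 9 members (12.7%), beside 16.7% of all genes tested. Of these, 7 were higher, beside 8.57% of all genes, and 2 were lower, beside 8.16%. The groups did not overlap for 12 members, 7 higher and 5 lower (16.9%), beside 21.0% of all genes tested, of which 10.4% were higher and 10.6% lower. Some of these 12 passed the threshold of 10 only through the group where they were high. Among the higher ones, ATMG01110, ATMG01100 and ATMG00720 had wild-type means of 9.29, 8.20 and 6.57 normalized counts. Among the lower ones, ATMG01250 had a mean of 8.38 in the bbx14-1-labelled libraries. ATMG01260, whose groups overlapped, had a wild-type mean of 6.26. A positive log2 fold change was found for 45 of 71 members (63.4%), beside 50.5% of all genes. The median log2 fold change was 0.07 over the members, with the middle 50% of them between -0.07 and 0.31, and 0.00 over all genes tested; over the members it was 0.00 without wild-type replicate 3, 0.14 without wild-type replicate 2, and 0.02 when the members were scaled to their own total.

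**Figure D3:**
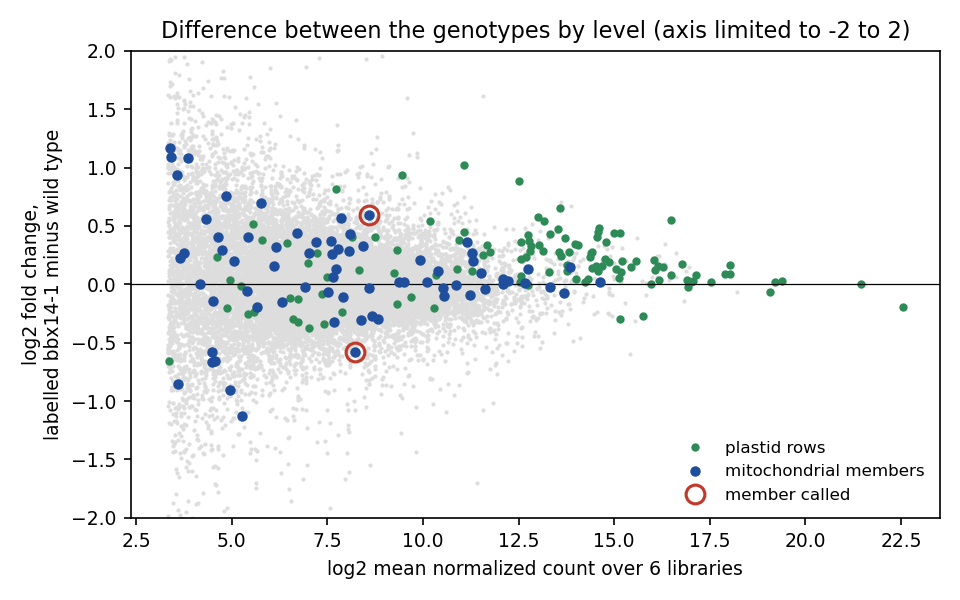
Each point is a gene tested, with the log2 of its mean normalized count over 6 libraries on the horizontal axis and its log2 fold change (libraries labelled bbx14-1 minus wild type, n = 3 each) on the vertical axis, which is limited to changes between -2 and 2; mitochondrial members are blue, plastid rows green, other genes grey, and rings mark the 2 members called. Members with a mean of at least 1000 lie between -0.10 and 0.36, and those under 100 between -1.13 and 1.17.

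ATMG01275 carries the first piece of nad1, whose mRNA is joined by trans-splicing from pieces encoded apart in the mitochondrial genome. It had 353, 310 and 253 normalized counts in wild-type seedlings and 377, 624 and 403 in the bbx14-1-labelled libraries. All 3 of the latter lay above all wild-type libraries, but replicate 1 exceeded the highest wild-type value by little and replicate 2 stood well above the rest. The means were 306 ± 50.2 and 468 ± 136 normalized counts (SD, n = 3 each), a log2 fold change of 0.59 ± 0.16 (SE) with an adjusted p of 0.0353 by limma. The call was lost without bbx14-1 replicate 2 (log2 fold change 0.36, adjusted p 0.272). It was also lost when wild-type replicate 3 was omitted (0.46, adjusted p 0.187) and when wild-type replicate 2 was (0.61, adjusted p 0.0525). The adjusted p was 0.333 in a fit without the variance trend and 0.0507 with voom on recovered reads, so neither called it, and it ran from 0.0173 to 0.333 over 16 alternatives.

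Its nuclear copy AT2G07785, identical over that piece, had at most 2.51 normalized counts in any library, which is under the floor of 3 reads. Summed with this copy, the log2 fold change was 0.58 ± 0.16 (SE), and the adjusted p was 0.0358.

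ATMG00280, the rbcL-like row, moved the other way. It had 299, 328 and 443 normalized counts in wild-type seedlings and 257, 265 and 191 in the bbx14-1-labelled libraries, so that the groups did not overlap. Wild-type replicate 3 was the highest and bbx14-1 replicate 3 the lowest. The means were 357 ± 75.9 and 238 ± 40.8 normalized counts (SD, n = 3 each), a log2 fold change of -0.58 ± 0.16 (SE) with an adjusted p of 0.0382 by limma. Omitting wild-type replicate 3 ended the call (log2 fold change -0.41, adjusted p 0.255). So did omitting bbx14-1 replicate 3 (-0.43, adjusted p 0.177). It was not called without the variance trend (adjusted p 0.289) or with quantile normalization (0.0532), and the adjusted p ran from 0.0215 to 0.289 over the 16 alternatives.

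The nuclear copy AT2G07732 had 376, 397 and 556 normalized counts in wild-type seedlings and 329, 286 and 352 in the bbx14-1-labelled libraries. Here too all wild-type libraries lay above all others and wild-type replicate 3 was the highest, with a log2 fold change of -0.44 ± 0.15 (SE) and an adjusted p of 0.0894, so the copy was not called. The sum of both rows was 800 ± 174 in wild type and 561 ± 23.2 in the bbx14-1-labelled libraries (SD, n = 3 each), a log2 fold change of -0.49 ± 0.13 (SE) with an adjusted p of 0.0215. Since these sequences are close to plastid rbcL, the plastid total is given beside them. Plastid genes took 52.64% to 55.86% of reads in wild type and 49.61% to 56.67% in the bbx14-1-labelled libraries. The lowest share was that of bbx14-1 replicate 3 and the highest that of bbx14-1 replicate 2, which had 191 and 265 normalized counts of ATMG00280. This total covers all plastid genes and does not give the level of rbcL itself, which was not set beside these rows. The part of plastid transcripts in the difference between the groups was not tested.

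**Figure D4:**
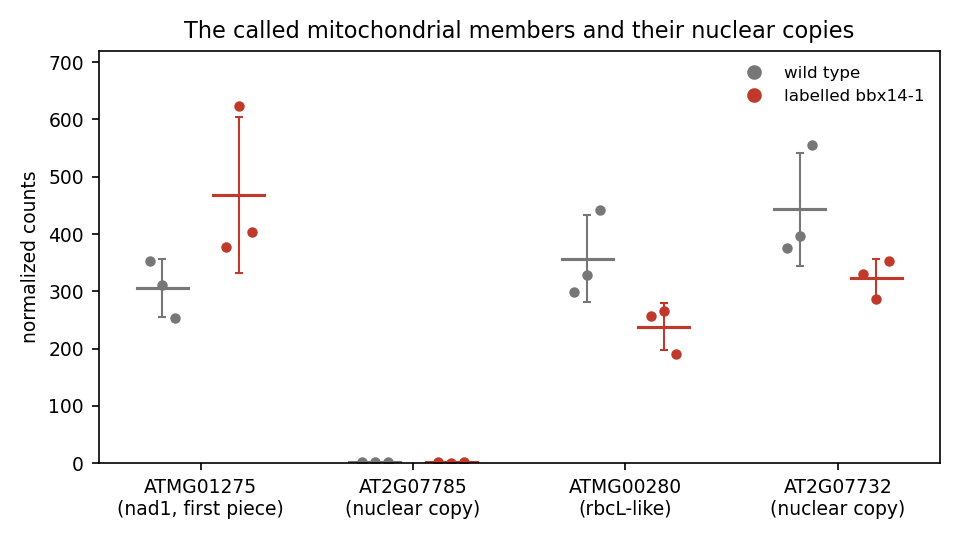
Points are the normalized counts of single libraries, horizontal lines are means and error bars are SD (n = 3 per group), for the 2 called members and their nuclear copies; grey is wild type and red is labelled bbx14-1, on an axis that starts at 0. ATMG01275 is spread from 377 to 624 in the bbx14-1-labelled libraries and its copy is near 0, while ATMG00280 and its copy AT2G07732 are both lower in that group.

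Among the other members with a description, none was called. For complex I, the entry point of electrons from NADH, ATMG01320 (NADH dehydrogenase 2B) had 3167 ± 180 normalized counts in wild-type seedlings and 3082 ± 326 in the bbx14-1-labelled libraries (SD, n = 3 each). ATMG00990 (NADH dehydrogenase 3) had 65.3 ± 19.5 and 72.0 ± 16.3, and summed with its copy it had 135 ± 20.5 and 136 ± 20.3. The call on the first nad1 piece, kept in 11 of 16 alternatives, was thus not accompanied by a call on either of these rows. The difference between the rows was not tested. The mitochondrial genome also encodes nad4, nad4L, nad5, nad6, nad7 and nad9. No member is described as any of them or as another piece of nad1, so the rest of complex I was not read here.

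For cytochrome c oxidase, which passes electrons to oxygen, ATMG00730 (subunit 3) had 348, 298 and 271 normalized counts in wild-type seedlings and 387, 414 and 349 in the bbx14-1-labelled libraries. The groups were separated by a narrow gap between 348 and 349, with a log2 fold change of 0.33 ± 0.13 (SE) and an adjusted p of 0.196. Its copy AT2G07687, which holds most of the reads, had 3504 ± 237 in wild type and 3177 ± 390 in the bbx14-1-labelled libraries (SD, n = 3 each), and the sum had a log2 fold change of -0.10 ± 0.09 (SE). The row and the sum thus differed in sign, with neither called. ATMG01280, described as similar to subunit II of the same enzyme, had 128 ± 11.98 and 167 ± 41.5 normalized counts (SD, n = 3 each). Summed with its copy AT2G07695 it had 276 ± 36.8 and 291 ± 26.5, and the log2 fold change was 0.08 for the sum beside 0.36 for the row.

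For ATP synthase, the row for subunit 1, ATMG01190, had 250 ± 20.7 normalized counts in wild-type seedlings and 233 ± 41.5 in the bbx14-1-labelled libraries (SD, n = 3 each). Summed with AT2G07698, atp1 had 9408 ± 586 and 9967 ± 921, a log2 fold change of 0.08 ± 0.09 (SE). The rows described as subunit 9, the ring protein of the membrane motor, had opposite signs. ATMG01080 had 167, 255 and 260 normalized counts in wild-type seedlings and 191, 157 and 187 in the bbx14-1-labelled libraries, a log2 fold change of -0.33. ATMG01090 had 202, 296 and 198 in wild type and 238, 386 and 314 in the bbx14-1-labelled libraries, a log2 fold change of 0.43. Both overlapped between the groups and neither was called, with adjusted p of 0.372 and 0.204 by limma. The sum of ATMG01080 with its copy AT2G07671, which held 60.2% of it, was 563 ± 69.1 in wild type and 456 ± 19.1 in the other group (SD, n = 3 each), a log2 fold change of -0.30 with an adjusted p of 0.185. For ATMG01080 the annotated atp9 coding sequence lies in the copy named for it, and for ATMG01090 no annotated coding sequence does, so the second description rests on the note alone. ATMG00480, which matches atp8, a membrane subunit, had 195 ± 22.9 and 244 ± 60.1 normalized counts (SD, n = 3 each).

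For the heme attachment factors of cytochrome c, ATMG00180 (ccmFC) had 388 ± 37.0 normalized counts in wild-type seedlings and 381 ± 33.9 in the bbx14-1-labelled libraries, and ATMG00960 (ccmFN2) had 182 ± 42.4 and 215 ± 17.96 (SD, n = 3 each). The ccmC row ATMG00900 was not a member, with 0.334 normalized counts against 144 on its nuclear copies. For the ribosome, ATMG00560, which matches rpl2, had 2461 ± 193 and 2311 ± 56.1 normalized counts, and ATMG00980 (rps12) had 85.6 ± 26.4 and 74.8 ± 5.22 (SD, n = 3 each). Summed with its copy, rps12 had 158 ± 28.1 and 147 ± 9.97. The apocytochrome b sum of ATMG00220 and AT2G07727 was 6225 ± 488 in wild type and 5841 ± 1170 in the bbx14-1-labelled libraries (SD, n = 3 each), with a log2 fold change of -0.11 ± 0.11 (SE). Of the 33 sums of a row with its copies that could be tested, 1 was called higher and 1 lower, those of ATMG01275 and ATMG00280. In that fit 883 of 18991 genes were called. Of the 63 genes of the insertion tested, 1 was called higher, AT2G07629, with a log2 fold change of 0.35 and an adjusted p of 0.0320 by limma, and 0 lower. The shares over all genes tested were 2.51% higher and 2.14% lower.

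Further members were taken by the size of their change. Among those with a mean of at least 50, ATMG00490 had the largest positive change, with 71.5, 40.2 and 19.2 normalized counts in wild-type seedlings and 68.8, 88.1 and 40.0 in the bbx14-1-labelled libraries. The groups overlapped widely, and the log2 fold change of 0.69 had a 95% interval from -0.10 to 1.49. ATMG01370 had 209, 244 and 120 normalized counts in wild-type seedlings and 241, 332 and 248 in the bbx14-1-labelled libraries, a log2 fold change of 0.56 with an adjusted p of 0.125. ATMG00040 had 88.9 ± 14.1 and 121 ± 14.1 normalized counts (SD, n = 3 each), and its groups did not overlap, with an adjusted p of 0.292.

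On the lower side, at a mean of at least 50, ATMG00280 was followed by ATMG01080, ATMG01390, ATMG01200 and ATMG00570. ATMG01200 had 512, 480 and 482 normalized counts in wild-type seedlings and 381, 307 and 543 in the bbx14-1-labelled libraries, a log2 fold change of -0.30 with an adjusted p of 0.329. It was called lower only when bbx14-1 replicate 3, its highest library, was left out (log2 fold change -0.52, adjusted p 0.0309). ATMG00570 had 445 ± 88.9 and 372 ± 90.5 normalized counts (SD, n = 3 each). Calls on ATMG00640, ATMG00650, ATMG01090 and ATMG01370 appeared without wild-type replicate 2, with log2 fold changes of 0.53 to 0.77, and the call on ATMG00650 (0.58, adjusted p 0.0478) also appeared without bbx14-1 replicate 1.

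The change was spread most widely among the least-read members. The median log2 fold change was 0.02 for the 20 members with a mean of at least 1000, 0.13 for the 25 members between 100 and 1000, and 0.21 for the 26 members under 100. The last set includes members that passed the threshold of 10 only through the group where they were high. These are ATMG01110, ATMG01100, ATMG00720 and ATMG01260, high in the bbx14-1-labelled libraries, and ATMG01250, high in wild type. The part of the threshold in the median of 0.21 was not tested. ATMG00030, which was chosen after its values were seen, had the largest negative change of all members. It had 41.2, 74.1 and 46.4 normalized counts in wild-type seedlings and 23.2, 18.3 and 30.0 in the bbx14-1-labelled libraries. The groups did not overlap, and the log2 fold change of -1.13 ± 0.36 (SE) had an adjusted p of 0.0751. Just above the threshold of 10 lay ATMG00720, with a mean of 10.7, and ATMG01260, with 10.4, and just below it lay ATMG00220 with 9.58 and ATMG00260 with 9.22 normalized counts.

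Replicates of a group were compared by their spread at like levels. The median within-group SD on the log2 scale was 0.15 for members with a mean of at least 1000, 0.19 for plastid rows and 0.11 for all genes tested at that level. Between 100 and 1000 normalized counts it was 0.28 for members, 0.23 for plastid rows and 0.17 for all genes. Between 10 and 100 it was 0.39, 0.47 and 0.40, so that the members were above all genes only in the upper ranges, where plastid rows were as well. These are descriptions with no test. Replicate 2 of bbx14-1 was the highest library for 29 of 71 members, beside 18.8% of all genes tested. Wild-type replicate 3 was the lowest for 30 of 71 members, but the share of all genes lowest in that library was not computed.

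Among members with a mean of at least 50, the largest within-group spread after ATMG00490 was that of ATMG00020, with 467, 1114 and 422 normalized counts in wild-type seedlings and 391, 571 and 1025 in the bbx14-1-labelled libraries. Wild-type replicate 2 and bbx14-1 replicate 3 were high, 1 library in each group, and the log2 fold change between the groups was 0.02. ATMG01390 followed with 289, 477 and 313 normalized counts in wild-type seedlings and 192, 257 and 464 in the bbx14-1-labelled libraries, and the same 2 libraries were high. In all, 7 members had both of these libraries above the other 4, beside 7.24% of all genes tested.

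The nuclear gene AT3G41768, annotated as 18S ribosomal RNA and chosen here after its values were seen, had 5609, 19905 and 5946 normalized counts in wild-type seedlings and 4250, 6585 and 28423 in the bbx14-1-labelled libraries. It was thus high in the same libraries. A second gene with that annotation, AT2G01010, had 159, 285 and 123 normalized counts in wild-type seedlings and 447, 559 and 1324 in the bbx14-1-labelled libraries. It was called higher, with a log2 fold change of 1.96 and an adjusted p of 6.54e-05 by limma. How reads were divided between ribosomal RNA genes was not examined. The mitochondrial genome has ribosomal RNA genes of its own, rrn5, rrn18 and rrn26. Which members, if any, are the rows of these genes was not determined, since most members are known by identifier only. The part of ribosomal RNA removal in the values of ATMG00020 and ATMG01390 was not tested. ATMG00650 and ATMG00200 completed the 5 members with the largest spread at that level. ATMG00650 ran from 1489 to 2550 normalized counts in wild-type seedlings and from 1820 to 3500 in the bbx14-1-labelled libraries. ATMG00200 ran from 70.6 to 146 and from 132 to 147.

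**Figure D5:**
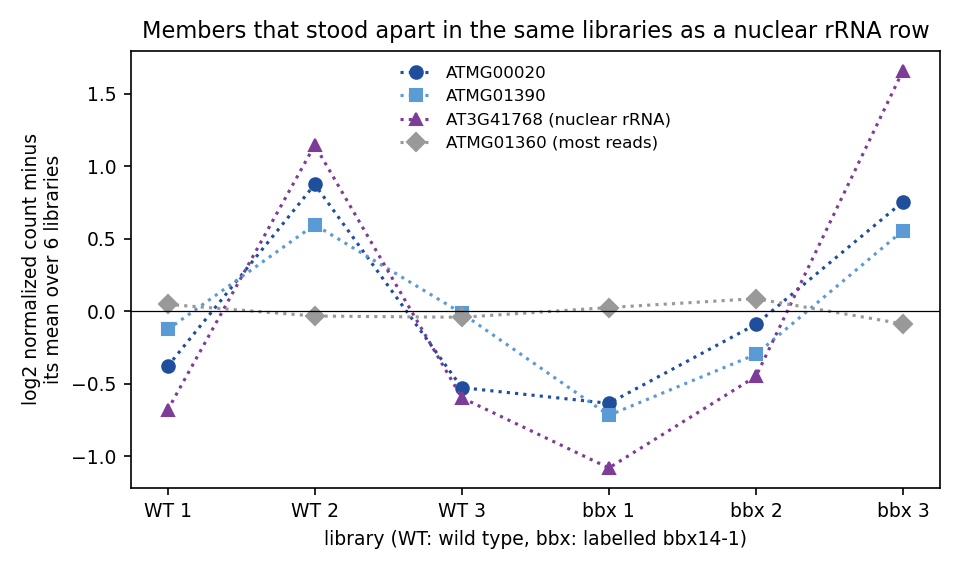
Lines give the log2 normalized count of a row in each library minus its mean over the 6 libraries, for ATMG00020, ATMG01390, the nuclear 18S ribosomal RNA gene AT3G41768 and the most-read member ATMG01360; WT marks wild-type and bbx marks libraries labelled bbx14-1, and the dotted lines only join the points of a row. The first 3 rows are high in WT 2 and bbx 3 (1114 and 1025 normalized counts for ATMG00020), where ATMG01360 stays near its mean.

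Nuclear genes that act in mitochondria were read beside the members in 8 lists. Of 142 entries, 107 could be matched to an annotated symbol and 98 were tested. By limma, 0 were called, beside 4.65% of all genes tested, and 12 had an unadjusted p under 0.05, beside 16.7% of all genes. With limma's voom on recovered reads, 0 were called, beside 910 of all 19003 genes. Without bbx14-1 replicate 1, MORF6 (AT2G35240), an RNA-editing factor, was called lower. Without bbx14-1 replicate 3, NDA2 (AT2G29990) and TIM17-2 (AT2G37410) were called lower.

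The nuclear subunits of the respiratory chain and ATP synthase, partners of the mitochondrial members in the same complexes, had a median log2 fold change of 0.04 over 22 tested. Their most abundant members were MPPBETA, a processing peptidase subunit held in complex III, with 2605 ± 228 normalized counts in wild-type seedlings and 2668 ± 27.9 in the bbx14-1-labelled libraries, and the complex I subunit EMB1467 with 1715 ± 40.0 and 1779 ± 190 (SD, n = 3 each). For transcription and RNA processing the median was -0.13 over 25 tested, with the editing factor MORF8 at 864 ± 59.5 and 757 ± 159 normalized counts and the ribonuclease RNR1 at 642 ± 12.1 and 616 ± 9.75. For mitochondrial DNA maintenance it was -0.12 over 12 tested, and the organellar DNA polymerases POLIA and POLIB had log2 fold changes of -0.13 and -0.08. For protein import and chaperones it was -0.13 over 14 tested, and its most abundant members were TIM17-2, a channel subunit of the inner membrane, with -0.34 and an adjusted p of 0.174, and the chaperone MTHSC70-1 with -0.14.

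The alternative respiration list covers the branch that bypasses complexes III and IV or complex I, and also the carriers PUMP1 and UCP2, which bypass neither. Its median was 0.23 over 9 tested. The alternative oxidase AOX1A had 685 ± 44.7 normalized counts in wild-type seedlings and 591 ± 71.5 in the bbx14-1-labelled libraries, and the NADH dehydrogenase NDA1 had 723 ± 55.5 and 844 ± 17.8 (SD, n = 3 each). The tricarboxylic acid cycle list had a median of 0.00 over 8 tested, with the aconitase ACO3 at a log2 fold change of -0.01. For the stress response list it was 0.13 over 3 tested, with the transcription factor NAC017 at -0.10, the carrier DIC2 at 0.13 and BCS1, named after its values were seen, at 0.76 with an adjusted p of 0.247. Of the 8 entries of this list, 4 were matched. NAC013, UPOX, At12Cys-2 and HSP23.5 were not matched by symbol and not read, so the 3 tested genes do not stand for the stress response. For the nuclear-encoded mitochondrial ribosomal proteins the median was -0.04 over 5 tested, with MRPL11 and NFD3 at -0.04 and -0.08.

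Tissue markers were read as well. The summed level of 6 root markers ran from 743 to 869 normalized counts in wild-type seedlings and from 867 to 940 in the bbx14-1-labelled libraries. Most of this sum came from SCR, with means of 473 and 519, and SHR, with 241 and 263. The sum of 5 shoot meristem markers ran from 637 to 689 and from 661 to 717, and that of 4 guard cell markers from 438 to 613 and from 469 to 584. By limma, 0 of the 11 tested were called, beside 4.65% of all genes tested. An unadjusted p under 0.05 was found for 1, beside 16.7% of all genes, namely COBL9, a root hair gene that was called by voom. It reached 24.2 ± 16.6 normalized counts in wild-type seedlings and 58.5 ± 13.5 in the bbx14-1-labelled libraries (SD, n = 3 each), with an adjusted p of 0.0669 by limma. Of the 5 root markers tested, 4 had a positive log2 fold change and PLT1 had a negative one. EXPA7 had 28.0 ± 10.9 and 33.2 ± 10.8 normalized counts, and PLT1 had 33.0 ± 4.90 and 23.3 ± 7.85 (SD, n = 3 each). The meristem markers WUS and CLV3 were at 0 in 5 and 4 of the 6 libraries, and WOX5 of the root was at 0 in 1. The part of tissue composition in the members' values was not tested.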

How the data were processed

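Normalized counts per gene for 6 libraries were used as deposited: per the name of the table, the authors normalized read counts with DESeq2, which divides by a size factor for each library. The submitters' processing notes name build TAIR10, TopHat2 2.1.1, featureCounts, DESeq2, Trimmomatic and FastQC. Strand setting, annotation release and treatment of multiple matches were not given in the sources used here. Every value was a whole multiple of the smallest in its library within a tolerance of 0.01 (100% of values), which gave whole reads for shares and depth. Genes with a mean of at least 10 were tested on log2(value + 1) with limma 3.58.1 (R 4.3.3), a scale that understates changes of low genes, with a mean-variance trend and two-sided p-values. The fit was tested on simulated data. Python 3.11.15 matched 50-base windows of the mitochondrial genome to the nuclear chromosomes of TAIR10.1, and descriptions came from the notes of nuclear copies. Named members were all called ones, the 8 with most reads, 5 per direction by change and 5 by spread at a mean of at least 50, and 2 on each side of the threshold. Nuclear lists gave up to 4 called genes or the 2 most abundant. For 1 list, 1 such gene is not reported here. Members and lists were chosen with earlier results of these data known. Alternatives covered pseudocount, filter, trend, scaling, voom, a replicate block, omitted libraries and, chosen after seeing the data, summed nuclear copies. Libraries in a group differed by more than sampling noise, with a chi-square per degree of freedom of at least 7.78. GLK samples were not analysed here.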

Additional observations from a re-analysis of the deposited data

How the results depend on the processing

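The number of members called, 2, was 0 without the variance trend, 1 with quantile normalization (ATMG01275), 1 with voom on recovered reads (ATMG00280), and 0 to 5 with 1 library left out, the 0 when wild-type replicate 3 was omitted and the 5 when wild-type replicate 2 was. It was 2 under both other pseudocounts, without a filter, with nuclear totals or the mitochondrial total as scaling, and with nuclear copies summed. The number of all genes called, 883, was 28 without the variance trend and 525 to 766 with 1 library left out, with 577 when wild-type replicate 3 and 525 when wild-type replicate 1 was omitted. Nuclear list members called, 0, ran from 0 to 2 with 1 library left out, 2 being without bbx14-1 replicate 3. Same-numbered libraries of the groups deviated together with correlations of 0.0425, 0.0175 and -0.0302, so the numbers were not taken as pairs. With the replicate block, 2 members, 0 nuclear list members and 915 genes were called. The difference in the members' share of reads ran from 0.00653 to 0.0284 percentage points over 4 other totals and member sets, was 0.0210 with nuclear copies added, and ran from 0.00234 to 0.0344 with 1 library left out, always higher in the libraries labelled bbx14-1. Of 658 values of single named genes recomputed, 606 kept sign and side of the threshold, 9 lost a call, 8 gained one, and 35 changed sign, all of genes called in neither fit. With the mitochondrial total as scaling, the log2 fold changes of ATMG01360, ATMG00513, ATMG01170 and ATMG00020 became -0.025, -0.035, -0.019 and -0.022, and with quantile normalization those of ATMG01360, ATMG00513 and ACO3 became -0.13, -0.0013 and 0.0078. With 1 library left out, those that changed sign ran from -0.022 to 0.065 (ATMG01360), -0.10 to 0.060 (ATMG00070), -0.00079 to 0.22 (ATMG00510), -0.096 to 0.11 (ATMG00513), -0.069 to 0.084 (ATMG01170), -0.056 to 0.17 (ATMG00090), -0.35 to 0.46 (ATMG00020) and -0.073 to 0.44 (ATMG00200). For nuclear genes the ranges were -0.26 to 0.48 (DIC2), -0.0097 to 0.11 (MPPBETA), -0.037 to 0.11 (EMB1467), -0.13 to 0.092 (MRPL11), -0.14 to 0.016 (NFD3) and -0.064 to 0.041 (ACO3), and for markers -0.019 to 0.097 (KNAT1), -0.28 to 0.45 (ANT) and -0.16 to 0.051 (TMM). The cause of these changes was not tested.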
